A study of Mus musculus with 36 samples.

Results

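The satellite repeats of the mouse were read from RNA-seq counts as 9 repeat families, those whose class is given as Satellite in the repeat names, out of 1561 repeat families counted beside 54842 genes. These are GSAT_MM (the major satellite repeat, MSR), SYNREP_MM (the minor satellite repeat), MMSAT4, ZP3AR, IMPB_01, SUBTEL_sa (a subtelomeric satellite, by its name), MurSAT1, CENSAT_MC and (CATTC)n. CENSAT_MC and (CATTC)n had 0 counts in all 36 libraries, which allows up to 3 counts in each. The other 7 passed a filter on low counts and were tested among 1492 repeat families.

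The libraries came from mouse embryonic fibroblast (MEF) cells, in 12 groups of 3 replicates. All of the cells carried a guide RNA against the MSR and a doxycycline-inducible dCas9, a Cas9 that binds DNA without cutting it, integrated as PiggyBac transposons in hygromycin-selected mixed cultures. In the MSR-dCas9-Control line dCas9 bears no effector, and in the MSR-dCas9-Activator line it is fused to the transcriptional activator VPR. Each line was sampled without doxycycline (uninduced), after doxycycline at 10 ng/ml (induced), and 3, 6, 12 and 24 h after the drug was removed. Doxycycline was given for 24 h to MSR-dCas9-Control cells and for 6 h to MSR-dCas9-Activator cells. The effector, the length of exposure and any other difference between the lines therefore cannot be told apart. Libraries of the MSR-dCas9-Repressor line were left out and not analysed here. Per library, genes held 27376846 to 57371803 counts and repeat families 7369635 to 16752224. Of 10 fibroblast markers, 8 had more than 3 counts in every library, and the 3 markers of endothelial cells summed to at most 0.868 CPM (counts-per-million of the library's gene counts) in MSR-dCas9-Control and 33.3 CPM in MSR-dCas9-Activator libraries.

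Satellite repeats are short units repeated head to tail in long arrays. In the mouse, the A/T-rich major satellite forms the pericentric heterochromatin that stains as DAPI-dense foci, and the minor satellite lies at the centromere, where the kinetochore assembles. Both arrays are packed in repressive chromatin and are transcribed at a low level in most cells.

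All copies of a repeat family share 1 count, which cannot be placed in the genome. To show the repeat itself, sequence was read from the 3 genes whose counts followed GSAT_MM most closely over the 36 libraries, Gm21738 (Pearson r = 0.998), Gm11168 (0.998) and Gm17535 (0.997). Exon 2 of transcript Gm11168-203 was 483 bases long. Its sequence repeated itself after 234 bases, the unit length known for the MSR, with 92.4% identity over the 249 bases that could be compared. The units below come from GRCm38 with the GENCODE M21 annotation. Those of Gm11168 lie at chr9:3004527-3004760 and chr9:3004761-3004994 on the plus strand. Exon 3 of Gm21738-201 lies at chr14:19417133-19417366 on the minus strand and is 234 bases long. Capitals in the second unit mark the 17 bases that differ from the first.
Gm11168 first unit: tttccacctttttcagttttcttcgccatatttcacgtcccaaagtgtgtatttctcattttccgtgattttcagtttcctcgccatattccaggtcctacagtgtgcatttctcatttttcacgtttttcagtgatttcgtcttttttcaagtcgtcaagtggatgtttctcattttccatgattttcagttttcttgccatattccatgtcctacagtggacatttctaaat
Gm11168 second unit: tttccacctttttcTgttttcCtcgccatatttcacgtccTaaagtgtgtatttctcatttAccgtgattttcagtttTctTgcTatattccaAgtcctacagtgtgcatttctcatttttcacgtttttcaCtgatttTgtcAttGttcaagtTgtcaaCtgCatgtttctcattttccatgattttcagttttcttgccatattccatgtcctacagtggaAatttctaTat
Gm21738 exon: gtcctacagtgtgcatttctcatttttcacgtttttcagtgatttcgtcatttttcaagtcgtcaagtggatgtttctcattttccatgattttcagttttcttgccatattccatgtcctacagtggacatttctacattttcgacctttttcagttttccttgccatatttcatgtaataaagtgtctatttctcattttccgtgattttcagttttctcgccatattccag
The second unit matched the first at 217 bases (92.7%). After its start was shifted to align, the Gm21738 exon matched the first unit at 223 bases (95.3%). A and T made up 62.8%, 65.4% and 64.5% of these sequences. That they are MSR units rests on the repeat length and not on a repeat annotation. Reads from such near-identical copies can be split between the genes and the family, so the counts of each are uncertain.

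Values are given as CPM, with library sizes and TMM factors taken from genes only. They are not corrected for length, so they are compared between libraries and not between families. Before induction, GSAT_MM stood at 37.0, 33.7 and 33.9 CPM in MSR-dCas9-Control and at 100, 52.9 and 91.1 CPM in MSR-dCas9-Activator replicates 1 to 3. The groups did not overlap, but the fitted log2 difference of 1.20 ± 0.63 (SE) did not pass edgeR's quasi-likelihood test (adjusted p = 1.0, 95% confidence interval -0.11 to 2.51). A fit of the uninduced libraries alone, without the block for replicate number, called it (log2 1.22, edgeR adjusted p = 7.26e-14). SYNREP_MM stood at 1.43, 1.64 and 1.70 CPM in MSR-dCas9-Control and at 16.2, 9.33 and 10.2 CPM in MSR-dCas9-Activator cells. This 7.48-fold difference was the 1 call among all 1492 repeat families before induction (0.067% called, log2 2.90 ± 0.40, edgeR adjusted p = 0.000413), and it was not called without the libraries of replicate 3 (log2 3.06, adjusted p = 0.82). The groups did not overlap for 2 of the 7 families, against 5.23% of all repeat families.

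After induction, the major and minor satellites were called higher in MSR-dCas9-Activator cells at every time, up to 24 h after the drug was removed. GSAT_MM stood at 3586, 2346 and 25079 CPM at the end of induction, against 32.3, 31.2 and 33.2 CPM in MSR-dCas9-Control cells. At 3 h the MSR-dCas9-Activator libraries held 4095, 10851 and 20418 CPM, and at 6 h 6209, 18631 and 34422 CPM. Replicate 3 was the highest at both times, and the MSR-dCas9-Control libraries held 22.5 to 34.1 CPM. At 12 h the MSR-dCas9-Activator libraries reached 7946, 19508 and 47427 CPM, and at 24 h 11933, 10977 and 37090 CPM. The MSR-dCas9-Control libraries held 27.2 to 46.6 CPM at these 2 times, so no MSR-dCas9-Activator library came near them.

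The fitted log2 difference in GSAT_MM between the lines was 7.92 ± 0.84 at the end of induction (242-fold, edgeR adjusted p = 6.51e-08), 8.70 ± 0.86 at 3 h and 9.15 ± 0.88 at 6 h. It was 9.22 ± 0.88 at 12 h (596-fold, adjusted p = 2.67e-09 by the same test) and 8.60 ± 0.86 at 24 h (389-fold, adjusted p = 1.71e-08). GSAT_MM was thus called at all 5 times from induction on, and in each of the 201 called values recomputed under other settings or with libraries left out it was called again. Its size depended on replicate 3. Without replicate 3 of the induced MSR-dCas9-Activator group the difference at the end of induction was 6.72 (105-fold), and without the libraries of replicate 3 in both lines it was 6.57, 8.49 at 12 h and 7.97 at 24 h. Without those of replicate 1 it was 9.31 at 3 h and 9.84 at 12 h.

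For SYNREP_MM, the MSR-dCas9-Activator libraries held 526, 340 and 507 CPM at the end of induction and 1120, 753 and 1092 CPM at 3 h. The counts were higher again at 6 h, with 1578, 860 and 1246 CPM, and at 12 h, with 2105, 1011 and 1415 CPM. At 24 h they were spread more widely, over 1404, 257 and 809 CPM. In MSR-dCas9-Control cells SYNREP_MM stayed between 1.29 and 2.25 CPM over all 6 times in 17 of 18 libraries, and replicate 1 at 6 h held 4.81 CPM. The log2 difference between the lines was 8.03 ± 0.45 at the end of induction (261-fold), 8.89 ± 0.46 at 3 h, 8.95 ± 0.46 at 6 h, 9.65 ± 0.48 at 12 h (804-fold) and 8.75 ± 0.46 at 24 h. The adjusted p by edgeR ran from 1.21e-14 to 1.72e-12.

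**Figure D1:**
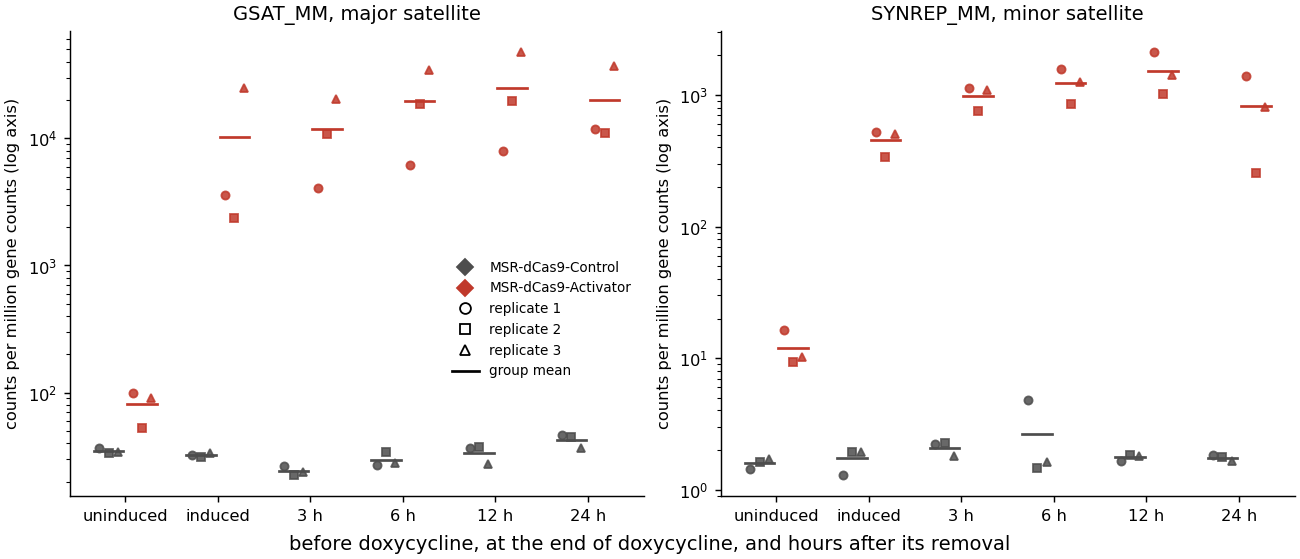
GSAT_MM (left) and SYNREP_MM (right) in CPM on log axes, by time. Each point is 1 library, shapes are replicates and bars are group means. From induction on every MSR-dCas9-Activator library lies at or above 2346 CPM for GSAT_MM and 257 CPM for SYNREP_MM, and every MSR-dCas9-Control library at or below 46.6 and 4.81 CPM.

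After the drug was removed, SYNREP_MM in MSR-dCas9-Activator cells was called higher again at 6 and 12 h, and for GSAT_MM the call depended on the tool, the scaling and the libraries in the fit. Against the induced group, which all of these comparisons share, the log2 change of SYNREP_MM was 1.12 ± 0.32 at 3 h (edgeR adjusted p = 0.12), 1.40 ± 0.32 at 6 h (0.0031) and 1.69 ± 0.33 at 12 h (0.000159), and the last 2 were called. At 24 h it was 0.72 ± 0.32 (adjusted p = 0.062 by the same test), and without replicate 2 of that group, the library at 257 CPM, it was 1.12 and called (adjusted p = 0.0024).
For GSAT_MM the log2 change against the induced group was 0.38 ± 0.62 at 3 h (edgeR adjusted p = 0.88) and 1.12 ± 0.63 at 6 h (0.155). It was 1.42 ± 0.63 at 12 h (0.0503) and 1.13 ± 0.63 at 24 h (0.131). The 95% confidence interval at 24 h ran from -0.17 to 2.43. Without replicate 3 of the induced group, the library at 25079 CPM, the change was 2.39 at 6 h (edgeR adjusted p = 0.0061), 2.69 at 12 h (0.0014) and 2.40 at 24 h (0.0045), and all 3 were called. With all libraries in, the change was called at 12 h by DESeq2 (1.52, adjusted p = 0.016), by edgeR with DESeq2's size factors (0.0321) and by limma voom (1.70, adjusted p = 0.0166). It was called at 24 h by limma voom (adjusted p = 0.0408) and when libraries were scaled to the 13 mitochondrially encoded mRNAs (1.44, edgeR adjusted p = 0.046).

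By group mean, GSAT_MM was highest at 12 h (24961 CPM), followed by 24 h (20000), 6 h (19754), 3 h (11788) and the end of induction (10337), and neighbours in this order overlapped. The uninduced MSR-dCas9-Activator group followed at 81.4 CPM, overlapping neither the group above it nor the highest MSR-dCas9-Control group, that at 24 h (42.8 CPM). SYNREP_MM was likewise highest at 12 h (1510 CPM), and then at 6 h (1228), 3 h (988), 24 h (823) and the end of induction (457), again with neighbours overlapping.

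The replicate with the most counts differed between these satellites. Over the 5 times from induction on, replicate 3 of MSR-dCas9-Activator had the highest GSAT_MM at 5 of 5 times. Replicate 2 had the lowest GSAT_MM at the end of induction and at 24 h, and replicate 1 had it in between. Replicate 1 had the highest SYNREP_MM at 5 of 5, and replicate 2 the lowest at 5 of 5. The highest library exceeded the lowest 10.7-fold for GSAT_MM and 1.55-fold for SYNREP_MM at the end of induction, and 3.38-fold and 5.46-fold at 24 h. In MSR-dCas9-Control cells no replicate was highest at more than 2 of these 5 times for either family. Pearson's r between the log2 CPM of the families, given as a description, was 0.27 over the 15 MSR-dCas9-Activator libraries from induction on and -0.36 over the 18 MSR-dCas9-Control libraries, each set holding several times of the same replicates.

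Per 100 counts of GSAT_MM, MSR-dCas9-Control libraries held 3.87 to 17.7 counts of SYNREP_MM (median 5.00). Uninduced MSR-dCas9-Activator libraries held 16.2, 17.7 and 11.2, above the 3 uninduced MSR-dCas9-Control libraries, with a two-sided exact permutation p = 0.1, the smallest that 3 against 3 allows (0.6 after Benjamini-Hochberg adjustment over 6 times). At the end of induction the ratio was 14.7, 14.5 and 2.02, and at 12 h it was 26.5, 5.18 and 2.98. Replicate 1 had the highest and replicate 3 the lowest ratio at each of the 5 times, and at 24 h the ratios were 11.8, 2.34 and 2.18. From induction on the groups of the lines overlapped in this ratio at every time, with exact permutation p = 0.4 to 1 before adjustment.

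**Figure D2:**
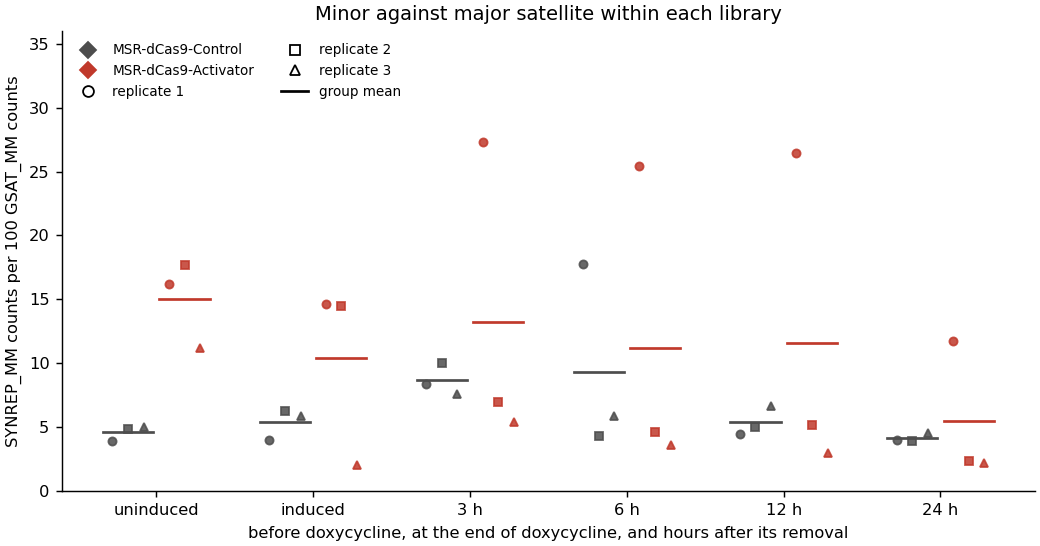
Counts of SYNREP_MM per 100 counts of GSAT_MM by time, each point 1 library and shapes replicates. Replicate 1 of MSR-dCas9-Activator lies highest and replicate 3 lowest of that line from induction on, while MSR-dCas9-Control libraries lie around a median of 5.00.

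MurSAT1, a family with few counts, was also higher in MSR-dCas9-Activator cells. It had 0 to 8 counts in each MSR-dCas9-Control library and 1, 2 and 4 counts in uninduced MSR-dCas9-Activator cells. At the end of induction it had 19, 9 and 22 counts, at 3 h 18, 31 and 23, and at 6 h 22, 11 and 13. It had 24, 25 and 11 counts at 12 h and 40, 14 and 28 at 24 h, so every library from induction on lay above every MSR-dCas9-Control library. The log2 difference between the lines was 2.54 ± 0.67 at the end of induction, 2.79 ± 0.60 at 3 h and 1.52 ± 0.58 at 6 h. Later it was 2.36 ± 0.57 (12 h) and 2.81 ± 0.56 (24 h), and all 5 were called. The call at 6 h was lost when libraries were scaled to the 13 mitochondrially encoded mRNAs (0.82), without replicate 1 (1.25) of the 6 h MSR-dCas9-Activator group or replicate 3 (1.41) of the MSR-dCas9-Control group, and the call at the end of induction without the libraries of replicate 1 (1.72, edgeR adjusted p = 0.070). MurSAT1 passed the filter on low counts through the groups in which it is high, so its place among the families tested follows from that difference.

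MMSAT4 and ZP3AR were lower in MSR-dCas9-Activator cells. MMSAT4 held 239, 231 and 229 CPM there before induction, within the 199 to 293 CPM of the MSR-dCas9-Control libraries. It held 109, 152 and 113 CPM at the end of induction, 89.6, 104 and 85.7 at 3 h, and 88.5, 119 and 85.4 at 6 h. At 12 h the values were 86.6, 124 and 105 CPM and at 24 h 149, 225 and 158 CPM, and at each of the 5 times all lay below the MSR-dCas9-Control libraries of that time. The log2 difference between the lines was -1.12 ± 0.13 at the end of induction (edgeR adjusted p = 2.97e-12), -1.44 ± 0.13 at 3 h and -1.28 ± 0.13 at 6 h. It was -1.09 ± 0.13 after 12 h and -0.66 ± 0.13 after 24 h, and all 5 were called. Within the MSR-dCas9-Activator line, MMSAT4 rose from the end of induction to 24 h by 0.50 ± 0.13 on the log2 scale (edgeR adjusted p = 0.0010), a value at the limit of 0.5 that was not called without replicate 2 of the 24 h group (0.35). The median over all repeat families rose by 0.38 in the same comparison.

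ZP3AR had 121, 121 and 135 CPM in uninduced MSR-dCas9-Activator cells, against 107 to 154 CPM over the MSR-dCas9-Control libraries. Its level was 78.3, 78.4 and 78.1 CPM at the end of induction, 70.3, 92.0 and 63.4 at 3 h, and 82.4, 123 and 87.0 at 6 h. By 12 h it was 119, 148 and 131 CPM and by 24 h 152, 146 and 151 CPM, values that overlapped MSR-dCas9-Control cells. The log2 difference between the lines was -0.65 ± 0.13 at the end of induction (edgeR adjusted p = 1.56e-05), -0.74 ± 0.13 at 3 h and -0.58 ± 0.13 at 6 h, all called, and -0.12 ± 0.13 at 12 h and 0.07 ± 0.13 at 24 h, not called. DESeq2 put the 6 h difference within the limit of 0.5 (-0.41), as did leaving out the libraries of replicate 3 (-0.50), and scaling to the 13 mitochondrially encoded mRNAs called ZP3AR lower at 12 h (-0.76). From the end of induction ZP3AR rose by 0.76 ± 0.13 to 12 h and by 0.93 ± 0.13 to 24 h (edgeR adjusted p = 7.23e-09), where the median over all repeat families rose by 0.47 and 0.38.

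SUBTEL_sa, with 29 to 144 counts per library, held 1.11 to 3.05 CPM in MSR-dCas9-Control cells. In MSR-dCas9-Activator cells it had 1.90, 1.73 and 2.82 CPM before induction, 1.13, 1.20 and 1.61 at its end, and 0.564, 1.36 and 0.764 at 3 h. It then had 0.976, 1.37 and 1.11 CPM at 6 h, 1.18, 1.46 and 1.17 after 12 h, and finally 1.11, 2.24 and 1.20. The log2 difference between the lines was -0.81 ± 0.25 at the end of induction, -1.20 ± 0.27 at 3 h, -0.62 ± 0.27 at 6 h and -0.78 ± 0.25 at 24 h, all called, with overlapping groups at 6 and 24 h. At 12 h it was -0.52 ± 0.26 (edgeR adjusted p = 0.074). The call at 6 h was not made without replicate 3 of the MSR-dCas9-Control group (-0.35), without replicate 1 or 3 of the MSR-dCas9-Activator group (-0.61 and -0.51), by DESeq2 (-0.44) or by limma voom (-0.60). The call at 24 h was lost without replicate 1 (-0.68) or 3 (-0.56) of the MSR-dCas9-Activator group and in a fit of the compared libraries alone (-0.80), and that at the end of induction without the libraries of replicate 1 (-0.75). The call at 3 h was made under each of these settings.

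IMPB_01 carried the most satellite counts in MSR-dCas9-Control cells, 50.3 to 57.5% of them at 419 to 545 CPM, and was not called between the lines at any time by edgeR with TMM scaling. In MSR-dCas9-Activator cells it had 476, 439 and 553 CPM before induction, 413, 340 and 430 at its end, and 458, 435 and 358 at 3 h. It then had 515, 593 and 519 CPM at 6 h, 593, 591 and 647 after 12 h, and finally 674, 604 and 572. The log2 differences between the lines, -0.30 at the end of induction (edgeR adjusted p = 0.0349), -0.17 at 3 h, 0.05 at 6 h, 0.33 (0.0133) after 12 h and 0.22 after 24 h, lay within the limit of 0.5. DESeq2 called IMPB_01 higher at 12 h (0.51, adjusted p = 4.44e-05). When libraries were scaled to the 13 mitochondrially encoded mRNAs, it was called lower at the end of induction (-0.66), 3 h (-0.74) and 6 h (-0.65), and the values at 12 and 24 h were below 0, so its direction depended on the scaling. Within the MSR-dCas9-Activator line IMPB_01 rose from the end of induction by 0.63 ± 0.12 to 12 h (edgeR adjusted p = 1.16e-05) and by 0.64 ± 0.12 to 24 h. The median over all repeat families rose by 0.47 and 0.38 in these comparisons, so much of this rise was not particular to IMPB_01.

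**Figure D3:**
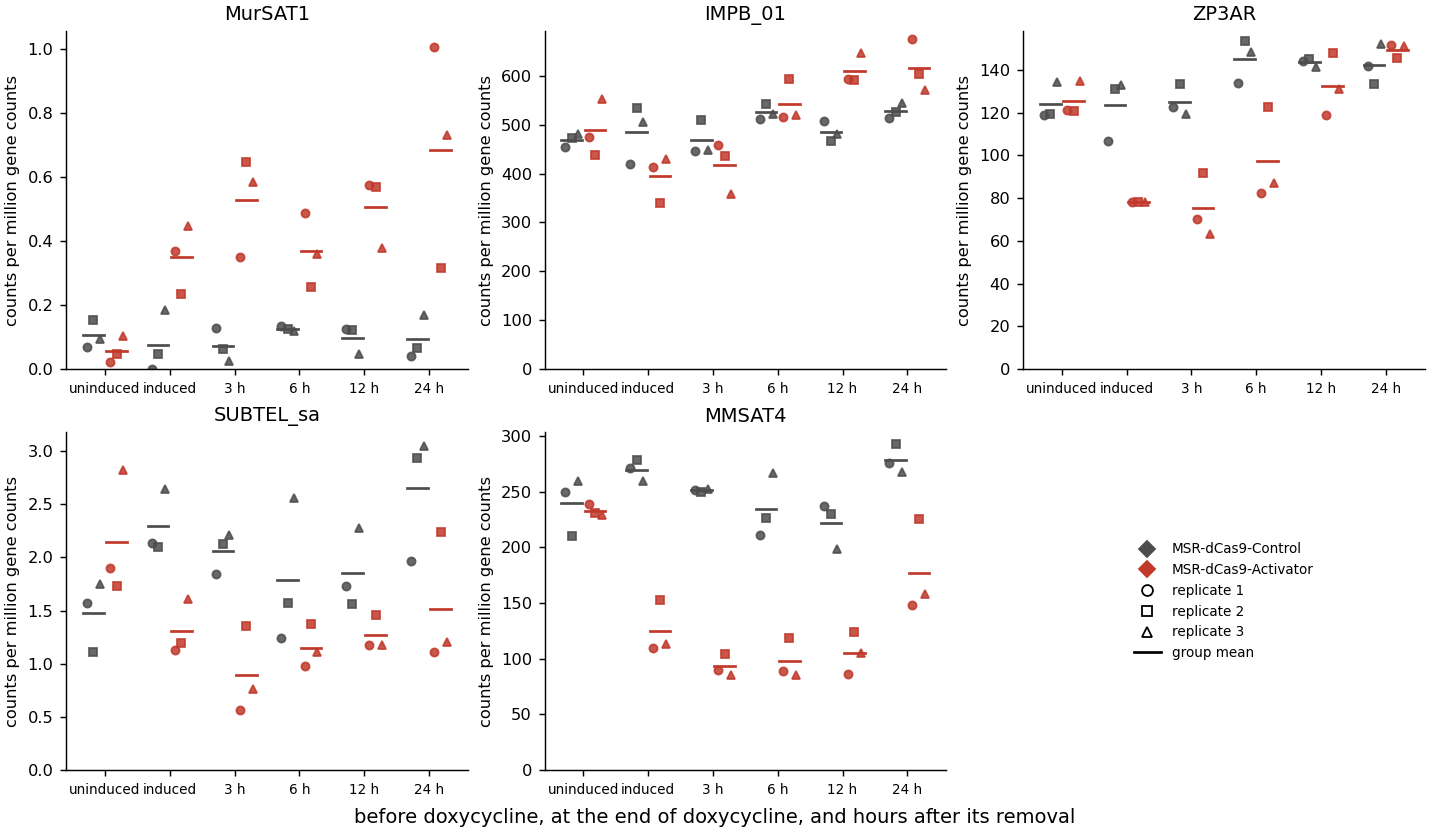
The 5 satellite families other than GSAT_MM and SYNREP_MM in CPM by time, each point 1 library and bars group means. MMSAT4 lies below MSR-dCas9-Control from induction to 24 h, ZP3AR is at 78.1 to 78.4 CPM at the end of induction and 146 to 152 CPM at 24 h, and MurSAT1 lies above every MSR-dCas9-Control library from induction on.

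Between the lines, 6 of the 7 families were called at the end of induction, at 3 h and at 6 h, 4 at 12 h and 5 at 24 h. The background was 32.5%, 46.8%, 45.6%, 51.1% and 31.3% of all 1492 repeat families. GSAT_MM, SYNREP_MM and MurSAT1 were the 3 called higher at each time. MurSAT1, which passed the filter through the groups where it is high, is not read against the background. Without it 5, 5, 5, 3 and 4 of 6 families were called, 2 of them higher, where 20.2%, 31%, 34.4%, 45.4% and 29% of repeat families were. Called lower were 3, 3, 3, 1 and 2 families at these times, against 12.3%, 15.8%, 11.2%, 5.76% and 2.28%. At 12 h, 3 of 6 stands close to the background. The groups did not overlap for 6, 6, 5, 6 and 5 of the 7 families at these times, 5, 5, 4, 5 and 4 of the 6 other than MurSAT1, and for 39.9%, 60.4%, 57.4%, 70% and 50.3% of all repeat families. The median log2 difference over the 7 families was -0.30, -0.17, 0.05, 0.33 and 0.22, over the 6 other than MurSAT1 -0.48, -0.45, -0.27, 0.11 and 0.15, and over all repeat families 0.00, 0.11, 0.21, 0.45 and 0.24.

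**Figure D4:**
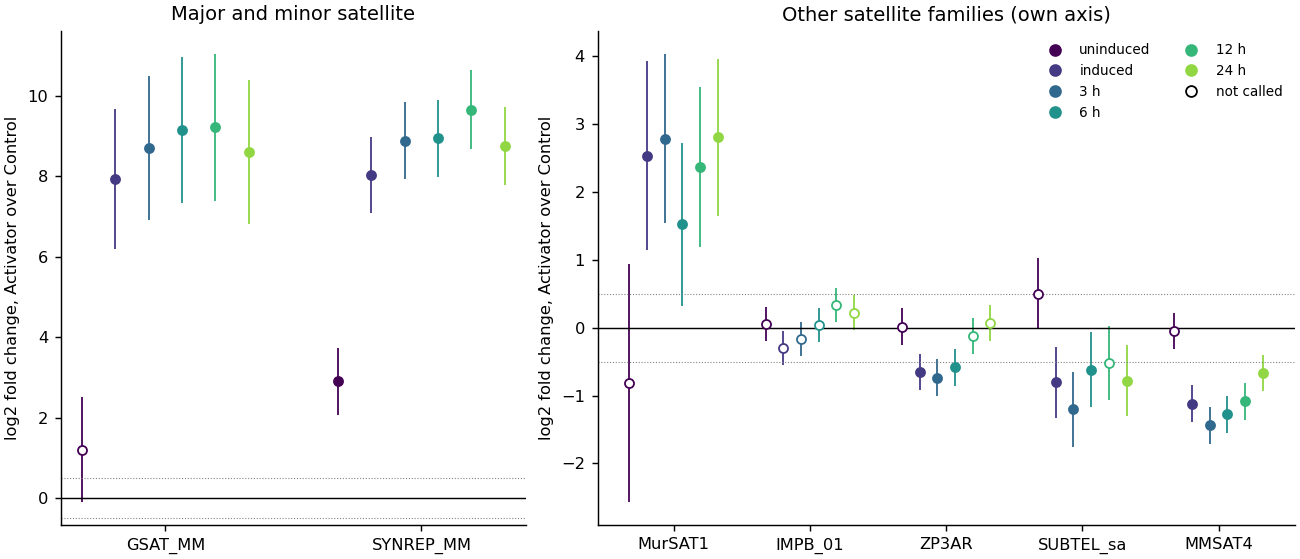
Fitted log2 differences (MSR-dCas9-Activator minus MSR-dCas9-Control) for the 7 families by time, with 95% confidence intervals, open symbols where not called and dotted lines at 0.5 and -0.5. GSAT_MM and SYNREP_MM lie between 7.92 and 9.65 from induction on, MMSAT4 below 0 throughout, and ZP3AR returns to about 0 at 12 and 24 h.

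Within the MSR-dCas9-Activator line, 6 of 7 families were called at the end of induction against its uninduced group (32% of all repeat families), 3 of them higher (19.6%) and 3 lower (12.4%). The later times share this uninduced group. At 3 h 6 families were called (44.6%), 3 higher (27.3%) and 3 lower (17.3%), and at 6 h 5 (46.6%), 3 higher (38.1%) and 2 lower (8.51%). At 12 h 5 were called (52.6%), 3 higher (47.3%) and 2 lower (5.29%). By 24 h only GSAT_MM, SYNREP_MM and MurSAT1 were called (37.9%), all higher (36.5%), and 0 lower by edgeR (1.41%), where MMSAT4 stood at log2 -0.41 ± 0.13, within the limit of 0.5. MurSAT1 was called at each of these times, so 5, 5, 4, 4 and 2 of the other 6 families stand against the background, 2 of them higher each time.
Against the induced group, 0 families were called at 3 h by edgeR (0.402%) and 0 by DESeq2, and 3 of 7 had an unadjusted p under 0.05 by edgeR. No share of all repeat families is given for that unadjusted count, so it is not read against a background. SYNREP_MM was the 1 family called at 6 h (17.4%). ZP3AR and IMPB_01 joined it at 12 h (42.2%), all 3 higher (41.9%). The counts at 6 and 12 h stand close to these background shares. The 3 called at 24 h were ZP3AR, IMPB_01 and MMSAT4 (27.7%), all higher (26.9%), with 0.737% of repeat families lower. Against the induced group, the median log2 change over all repeat families was 0.06, 0.30, 0.47 and 0.38 at 3, 6, 12 and 24 h.

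In the MSR-dCas9-Control line, 0 families were called by edgeR at any time against its uninduced group, where 0% to 0.067% of repeat families were, and 0 by DESeq2 at the end of induction and at 24 h. By edgeR, SUBTEL_sa was the 1 family with an unadjusted p under 0.05 at the end of induction (log2 0.60 ± 0.25) and again at 24 h (log2 0.79 ± 0.25). No share of all repeat families is given for these unadjusted p-values. In this line GSAT_MM differed from uninduced cells by log2 -0.13 ± 0.63 at the end of induction and 0.32 ± 0.63 at 24 h, and SYNREP_MM by 0.15 ± 0.45 at both. A term for the difference in change between the lines was called for 6 families at the end of induction (21.6% of repeat families) and 6 at 3 h (37.5%). It was called for 5 families each after 6 h (36.3%), 12 h (45%) and 24 h (20.8%). Without MurSAT1 these counts were 5, 5, 5, 4 and 4 of 6.

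The 7 families together made up 0.0647 to 0.0844% of all gene and repeat counts in MSR-dCas9-Control libraries and 0.0695 to 0.0817% in uninduced MSR-dCas9-Activator libraries. At the end of induction the share was 0.369%, 0.262% and 1.87% in MSR-dCas9-Activator cells, a mean of 0.834% ± 0.899 (SD, n = 3), or 0.316% without replicate 3. The means were 0.953% ± 0.540 at 3 h and 1.52% ± 0.897 at 6 h, and later 1.76% ± 1.08 (12 h) and 1.64% ± 1.01 (24 h). At each of these 5 times the lines did not overlap, with a two-sided exact permutation p = 0.1, the smallest possible (0.12 after adjustment over 6 times). GSAT_MM went from 2.45 to 4.74% of satellite counts in MSR-dCas9-Control cells to 6.19 to 10.5% in uninduced MSR-dCas9-Activator cells and 70.2 to 95.7% from induction on, while IMPB_01 then held 1.30 to 10.4%. GSAT_MM was at most 9.91% of all repeat counts, in replicate 3 at 6 h.

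**Figure D5:**
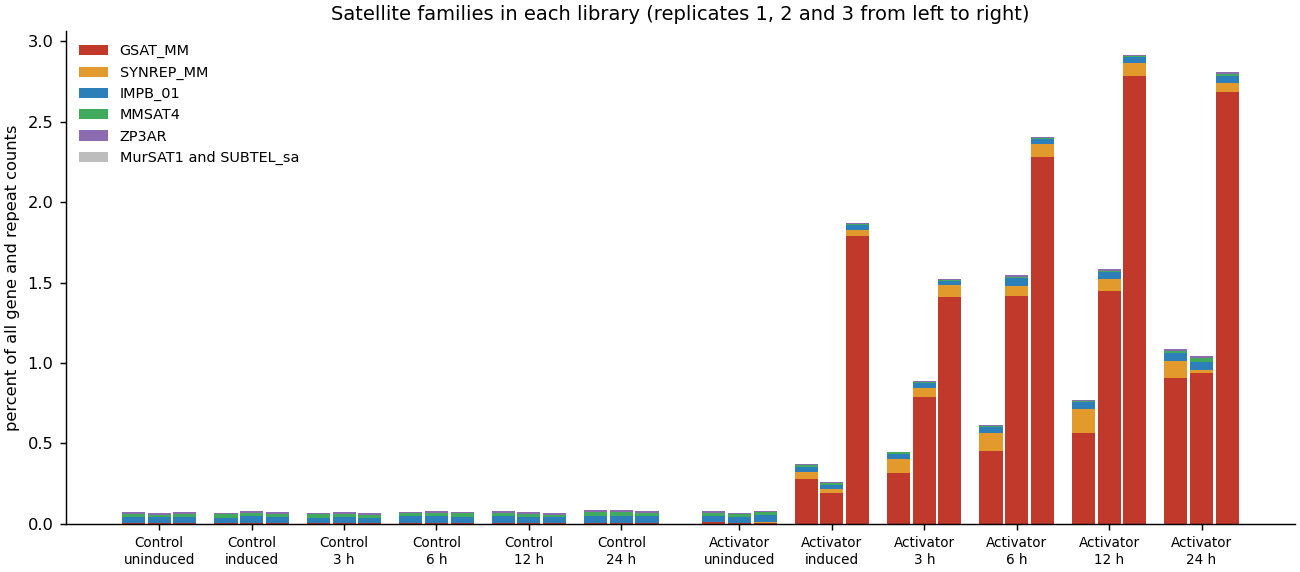
Percent of all gene and repeat counts taken by the satellite families, stacked by family, for each of the 36 libraries. MSR-dCas9-Control libraries lie at 0.0647 to 0.0844%, and MSR-dCas9-Activator libraries reach 2.92% at 12 h, most of it GSAT_MM.

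Genes whose counts followed a satellite family were looked for over the 36 libraries, as a description, since these libraries share the contrast of induced MSR-dCas9-Activator cells with the rest. For SYNREP_MM the 3 most alike of 13632 genes were Gramd1c (r = 0.990), Spag1 (0.989) and B230303O12Rik (0.989). The 3 most alike of 1168 repeat families were MMERVK10D3_I-int (0.983), MuRRS-int (0.975) and ETnERV3-int (0.972), internal parts of retroviral elements. By Spearman's rank correlation 0 of these 3 repeat families and 1 of the 3 genes were among the 3 most alike. The same 3 repeat families were most alike to GSAT_MM (0.982, 0.972 and 0.975).
Gm10800, a gene that was singled out after its values were seen, had 50 to 164 counts in MSR-dCas9-Control libraries and 46605 to 899445 in MSR-dCas9-Activator libraries from induction on, 0.120 to 2.54% of all gene counts. Per 100 counts of GSAT_MM it had 5.07 to 12.5 counts in MSR-dCas9-Control cells and 51.6 to 63.5 in MSR-dCas9-Activator cells from induction on. Uninduced MSR-dCas9-Activator libraries lay between, with 449 to 1608 counts of Gm10800 and 20.1 to 33.8 per 100 of GSAT_MM. Gm10800 was thus already higher in that line before induction (log2 3.01 ± 0.74, edgeR adjusted p = 0.041). The gene counts by which libraries were scaled include Gm10800. Scaling to the 13 mitochondrially encoded mRNAs leaves it out, and GSAT_MM and SYNREP_MM were called between the lines at the same times under it.

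Genes that act on these arrays were taken as 2 lists. Both were chosen with earlier results of these data known, so their counts and medians are given as a description. Of 26 genes for pericentric heterochromatin, such as histone methyltransferases, HP1 proteins and DNA methyltransferases, 0 were called between the lines before induction, and 3, 5, 6, 9 and 6 were called lower from the end of induction to 24 h, with none called higher by edgeR. By an unadjusted p under 0.05, 9 genes were lower and 0 higher before induction, and 1 was higher at each later time. No share of all genes is given for these unadjusted counts. The background of genes called lower was 0.021% before induction and then 5.79%, 9.62%, 10.3%, 10.4% and 3.31%. These are shares of all 28542 genes tested. Only genes with a mean count above 100 could be called, and 13632 genes had a mean of at least 100. The background among genes that could be called was therefore higher and is not given. The counts of this list are not read as above it. The median log2 difference over this list was -0.15 before induction and -0.76 at 24 h, and 0.03 and 0.08 over all genes. Dnmt3b, a de novo DNA methyltransferase, had 3.27 CPM in MSR-dCas9-Activator and 9.89 CPM in MSR-dCas9-Control cells at the end of induction (log2 -1.64 ± 0.21, edgeR adjusted p = 2.05e-07). Kmt5c, which methylates histone H4 at lysine 20, had 8.20 and 21.6 CPM (log2 -1.53 ± 0.32). At 24 h Dnmt1, the maintenance DNA methyltransferase, had 116 and 265 CPM (log2 -1.19 ± 0.10), and Kmt5c 10.8 and 24.1 CPM (log2 -1.32 ± 0.32).

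Of 21 genes for the centromere and kinetochore, 0 were called before induction and 2, 3, 4, 7 and 7 were called lower from the end of induction to 24 h, again with none called higher by edgeR. The background is the share of all genes called lower that is given for the list above, and it is too low here as well. The 2 genes at the end of induction and the 3 at 3 h stand close to it. The later counts are not read as above the background. By an unadjusted p under 0.05, 7 were lower and 0 higher before induction, and at the later times 2, 5, 4, 3 and 1 were higher. These unadjusted counts, too, have no share of all genes beside them. The median log2 difference was -0.14 before induction and -0.75 at 24 h. Knl1, a scaffold of the outer kinetochore, had 80.7 CPM in MSR-dCas9-Activator against 168 CPM in MSR-dCas9-Control cells at the end of induction (log2 -1.06 ± 0.10), and 57.0 and 163 CPM at 24 h (log2 -1.52 ± 0.10, edgeR adjusted p = 6.3e-13). Sgo2a, which protects cohesion at centromeres, had 26.4 and 59.7 CPM at the end of induction (log2 -1.19 ± 0.11). Cenpf, a kinetochore protein made late in the cell cycle, had 66.5 and 178 CPM at 24 h (log2 -1.42 ± 0.10).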

How the data were processed

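Gene and repeat counts of 36 RNA-seq libraries (total RNA, stranded) were used. The authors trimmed paired-end reads with cutadapt, aligned them to GRCm38 (mm10) with STAR and used TEtranscripts to count both genes and repeats. The deposited values are whole-number counts without normalisation. How multi-mapped reads were shared and the strand setting are not given in the sources used here. The 1 unnamed entry (0.00326% of counts) was left out.

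Repeat families kept by filterByExpr were tested with edgeR 4.0.16 (R 4.3.3, limma 3.58.1) by quasi-likelihood in 1 fit of the 12 groups, with the replicate number as block, as in the study's design formula, and with TMM-scaled library sizes from the gene counts. P-values were adjusted by Benjamini-Hochberg over all 1492 families, or over 28542 genes. Repeat families were called at an adjusted p under 0.05 with a log2 fold change beyond 0.5, and genes with one beyond 1 and a mean normalised count above 100. Standard errors were obtained from the fold change and its F statistic. Exact permutation tests were two-sided. The replicates are given as biological, and p-values measure the spread between these samples. Each effector is represented by 1 line, so p-values between the lines hold no spread between lines made independently. As a check of the pairing, deviations from group means of same-numbered libraries of the lines correlated above 0.1 in 16 of 18 pairs (-0.02 to 0.48). Alternatives were DESeq2 1.42.0, limma voom, other library sizes, filters, fold limits and fits without the block, and leaving out libraries. The fit was tested on simulated data.

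The members and gene lists were chosen with earlier results of these data known. Named were all members, the 3 genes and 3 repeat families most like GSAT_MM or SYNREP_MM, and the largest called falls in each list at the end of induction and at 24 h.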

Additional observations from a re-analysis of the deposited data

Results flagged for a closer look

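The change from uninduced cells differed between the lines for 6 satellite families at the end of induction, by a test of the difference itself (an interaction term in edgeR's quasi-likelihood fit, Benjamini-Hochberg adjusted over all repeat families). MurSAT1 is among them, and it passed the filter on low counts through the groups in which it is high. Without it 5 of 6 families were called. Over all repeat families this term was called higher for 176 and lower for 147. MSR-dCas9-Activator minus MSR-dCas9-Control, the difference in log2 change was 6.72 for GSAT_MM, 5.13 for SYNREP_MM and 3.35 for MurSAT1. It was -1.07 for MMSAT4, -1.31 for SUBTEL_sa and -0.67 for ZP3AR. At 24 h after removal, the difference in change from uninduced cells was 7.40 for GSAT_MM, 5.85 for SYNREP_MM and 3.62 for MurSAT1, and -0.61 for MMSAT4 and -1.28 for SUBTEL_sa. Without MurSAT1 these are 4 of 6 families, where 297 of all repeat families were called higher and 13 lower. From the end of induction to 24 h, the lines differed in their change by 0.52 for IMPB_01 and by 0.72 for ZP3AR, both higher in MSR-dCas9-Activator cells. Over all repeat families, 96 were called higher and 4 lower in that comparison, with a median of 0.25. This difference for IMPB_01 was not called without the replicate block (edgeR adjusted p = 0.0581), without TMM, with DESeq2's size factors, under mitochondrial scaling, in a fit of the compared libraries alone, or with most single libraries left out. That for ZP3AR was not called under mitochondrial scaling, in a fit of the compared libraries alone (0.0706), or without replicate 1 or 3. Other calls above were lost without 1 replicate number, and for MurSAT1 at the end of induction and MMSAT4 at 24 h also without some single libraries: MurSAT1 without replicate 1 at both times or without replicate 2 at the end of induction, SUBTEL_sa without replicate 3 at both, ZP3AR at the end of induction without replicate 1 or 3, and MMSAT4 at 24 h without replicate 1 or 3 or under mitochondrial scaling. The length of doxycycline exposure differed between the lines as well. It cannot be told apart here from the effector or from any other difference between the lines.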

How the results depend on the processing

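Of the log2 differences called between or within the lines, all values recomputed for GSAT_MM (201 of 201) and 263 of 264 for SYNREP_MM stayed called in the same direction under every alternative. The exception was SYNREP_MM in uninduced cells without replicate 3. For MMSAT4 186 of 201 stayed called, for MurSAT1 189 of 201, for ZP3AR 163 of 180, for SUBTEL_sa 133 of 159 and for IMPB_01 50 of 69, and none reversed. Values that were not called and changed sign were IMPB_01 at 6 h (-0.093 without TMM, -0.65 when scaled to mitochondrial mRNAs, -0.028 without replicate 2 of MSR-dCas9-Activator, up to 0.082 with another library left out), IMPB_01 at 12 h and 24 h (-0.33 and -0.033 with mitochondrial mRNAs), ZP3AR at 12 h (0.060 by DESeq2 and with its size factors), ZP3AR at 24 h (-0.20 with mitochondrial mRNAs, -0.016 without MSR-dCas9-Control replicate 2, up to 0.127) and GSAT_MM at 3 h against induced (-0.18 without replicate 2, -0.092 without replicate 2 of the induced group, 1.64 without its replicate 3). The cause was not tested.

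Fits without the replicate block, by the 12 groups, called as many families as with it in every comparison between the lines, and 1 instead of 2 in the difference of change from induction to 24 h. A fit of the compared libraries alone and without the block called 2 families in uninduced cells (GSAT_MM and SYNREP_MM), 1 at 3 h against induced, 1 at 24 h against uninduced in MSR-dCas9-Control, and 0 in the difference of change from induction to 24 h. Scaling to mitochondrial mRNAs called 1 family at 3 h and 6 at 24 h against induced, and 0 in that difference of change, and library size without TMM called 5 and 1 in the last 2. DESeq2 and its size factors each called 2 at 6 h against induced, and the size factors 1 in the difference of change from induction to 24 h. Over all repeat families the size factors called 407 higher and 4 lower at 6 h, where TMM gave 254 and 5. Genes and repeats in 1 fit called 1 at 3 h against induced. With a limit of 1 on the log2 fold change, 3 families were called between the lines at 24 h, 3 for induced against uninduced in MSR-dCas9-Activator, 1 at 12 h and 0 at 24 h against induced, and 0 in the difference from induction to 24 h. With no limit, 5 were called at 24 h against uninduced and 3 at 6 h against induced. Where no count over all repeat families stands beside them, these counts of satellite families are not read against a background. Under mitochondrial scaling, the heterochromatin list had 6, 11, 17, 20 and 13 genes called from induction to 24 h, and the centromere list 4, 10, 11, 13 and 10. The median log2 difference over all genes was then -0.27, -0.48, -0.62, -0.54 and -0.21, where TMM gave 0.10, 0.15, 0.14, 0.15 and 0.08. The whole set of genes was thus shifted lower, and the share of all genes called under mitochondrial scaling is not given. That scaling moved the median of all repeat families by -0.36, -0.58, -0.70, -0.64 and -0.27 (log2) at the 5 times and the calls at the end of induction from 301 higher and 184 lower to 149 and 481.

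With 1 replicate or library left out, the families called between the lines ranged from 0 to 1 in uninduced cells, 4 to 6 at the end of induction, 6 to 6 at 3 h, 3 to 6 at 6 h (3 without replicate 3), 4 to 5 at 12 h and 4 to 5 at 24 h. Within MSR-dCas9-Activator they ranged from 5 to 6 for induced and 3 to 5 for 24 h against uninduced (5 without replicate 2, or without its 24 h library), and 0 to 1, 1 to 3, 3 to 4 and 2 to 4 at 3, 6, 12 and 24 h against induced. For the differences of change they ranged from 4 to 6 at the end of induction, 3 to 5 at 24 h (3 without replicate 1 or 3) and 0 to 2 from induction to 24 h. No share of all repeat families is given for these ranges, so they are not read against a background. Without replicate 3 of MSR-dCas9-Activator, the difference between the lines in satellite share fell from 0.761 to 0.243 percentage points at the end of induction, from 1.68 to 1.10 at 12 h and from 1.56 to 0.981 at 24 h, and that in uninduced cells from 0.00659 to 0.00371. The difference in SYNREP_MM per 100 GSAT_MM was 5.02 at the end of induction, 9.20 without replicate 3 of MSR-dCas9-Activator and 2.88 without replicate 1. It changed sign without replicate 1 at 3 h (-2.50), 6 h (-5.19), 12 h (-1.28) and 24 h (-1.87), and without replicate 2 of MSR-dCas9-Control at 6 h (-0.587). By Spearman's rank correlation, 1 of the 3 genes and 1 of the 3 repeat families most like GSAT_MM stayed among the 3, and 1 and 0 for SYNREP_MM.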
